A study of Mus musculus with 10 samples.

Results

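Autophagy, cathepsin and lysosomal pump genes were followed in leukemic mouse spleens with and without deletion of Sirt1. The genes were chosen by symbol alone: every Atg gene with a number, the Lamp genes, the cathepsins other than Ctsg, every Atp6v gene, and Ulk1, Becn1, Sqstm1, Map1lc3a, Map1lc3b and Tfeb. Of 59 symbols that match, 54 had a normalized count of 10 or more in at least 5 of 10 libraries, the minimum used for all 13567 genes tested. Among these 54, no gene passed this minimum through 1 group alone (0 of 54).

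The Sirt1 deleted group held 5 spleens from C57BL/6 recipients given 3 mg of tamoxifen in corn oil by intraperitoneal injection. The control group held 5 spleens from recipients given corn oil only. All 10 recipients were irradiated below the lethal dose and carried T cell acute lymphoblastic leukemia (T-ALL) with a conditional Sirt1 allele, so deletion and tamoxifen came together and cannot be told apart. The labels give no Cre driver, age, batch or pairing, and do not say whether 1 or several leukemias were passed on, so p-values here speak only for the spread among these libraries, part of which may be technical.

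Macroautophagy wraps cytoplasm in a double membrane and delivers it to the lysosome. The ULK1 kinase complex starts the process, the BECN1 lipid kinase complex marks the site, ATG2 and ATG9 supply lipid, and a pair of conjugation systems attach LC3 to the growing membrane. Lysosomes are acidified by the V-ATPase, a rotary proton pump with a cytosolic V1 part that hydrolyses ATP and a membrane V0 part that carries protons. Cathepsins are the proteases that work in this acid lumen, and LAMP1 and LAMP2 coat its membrane. The transcription factor TFEB binds E-boxes in the promoters of many lysosomal genes. In spleen, macrophages are especially rich in lysosomes.

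Promoters were read for the letters CACGTG, the E-box core, and TCACGTGA, the longer form central to the element that TFEB binds. RefSeq promoters on GRCm38.p6, each of 300 bases from 250 before to 50 after a gene's start, were at hand for 41 of the 54 genes. Both motifs read the same on either strand, and the shorter lies within the longer. The core CACGTG stood in a promoter of 13 of the 41 genes, against 7.15% of all 32851 promoters. TCACGTGA stood in 6 of the 41 (Atg3, Atp6v0d1, Atp6v0e, Atp6v1a, Ctsa and Ctsd), against 0.974% of all promoters; some genes have several promoters, so the shares are not on the same base. The sequences of 3 of them are shown because their transcripts went different ways in the results that follow, Atp6v1a lower, Atp6v0e higher and Ctsd uncalled in the values as deposited. Capitals mark TCACGTGA, which ends 124 bases before the RefSeq start used for Atp6v1a (chr16:44139210-44139509, minus strand), 10 bases past that of Atp6v0e (chr17:26676146-26676445, plus strand) and 91 bases before that of Ctsd (chr7:142387778-142388077, minus strand). The gene spans given with the results are from GENCODE, which has transcripts that start further upstream, so all 3 motifs lie inside those spans.
Atp6v1a: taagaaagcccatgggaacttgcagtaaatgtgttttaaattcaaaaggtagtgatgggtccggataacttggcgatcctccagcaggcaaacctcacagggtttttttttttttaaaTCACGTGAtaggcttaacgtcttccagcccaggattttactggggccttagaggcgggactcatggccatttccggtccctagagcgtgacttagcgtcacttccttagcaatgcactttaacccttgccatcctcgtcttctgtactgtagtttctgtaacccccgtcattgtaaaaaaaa
Atp6v0e: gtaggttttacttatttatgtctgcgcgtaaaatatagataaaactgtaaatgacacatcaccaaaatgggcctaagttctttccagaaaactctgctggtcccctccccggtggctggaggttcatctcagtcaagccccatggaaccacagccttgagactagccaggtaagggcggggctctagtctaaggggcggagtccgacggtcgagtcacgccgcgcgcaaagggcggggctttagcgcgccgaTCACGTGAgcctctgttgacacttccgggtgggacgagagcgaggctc
Ctsd: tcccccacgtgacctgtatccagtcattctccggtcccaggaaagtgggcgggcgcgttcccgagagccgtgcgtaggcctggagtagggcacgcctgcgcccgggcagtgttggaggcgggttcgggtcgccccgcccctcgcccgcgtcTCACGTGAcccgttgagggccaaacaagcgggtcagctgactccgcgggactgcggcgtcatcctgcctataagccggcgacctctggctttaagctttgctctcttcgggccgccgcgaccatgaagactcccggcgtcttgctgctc
A match of letters is a description of these windows and not a measured binding site.

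The deposited totals lay between 33587590 and 34790200 normalized counts per library, and judged from the steps between low values between 62.4 and 131 reads, depending on the library, stood behind a normalized value of 100. Sirt1 itself was lower in the Sirt1 deleted group. It averaged 918 ± 155 normalized counts in Sirt1 deleted spleens and 1233 ± 97.6 in control spleens (SD, n = 5 each), a log2 difference of -0.44 (exact two-sided permutation p = 0.00794, which no regrouping of these 10 libraries can undercut; limma adjusted p = 0.0125). With the correction for transcript length and GC content described below, the Sirt1 difference was -0.25 (limma adjusted p = 0.0289). T lineage markers were abundant in both groups, with Cd3e at 23563 in Sirt1 deleted and 22383 in control spleens on average. Values per gene cannot show whether every leukemic cell lost the allele.

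Of the 54 genes, 6 were called higher and 7 lower in Sirt1 deleted spleens, where called means an adjusted p of at most 0.05 in limma over all genes tested. These 13 are 24.1% of the 54, below the 32.0% called among all 13567 genes. None of the 54 reached a 2-fold difference, and their median absolute log2 difference was 0.15, against 0.19 for all genes. The higher ones were Sqstm1 and the pump subunits Atp6v0b, Atp6v0c, Atp6v0e, Atp6v1f and Atp6v1g1. The lower ones were Ulk1, Atg2b, Lamp2, Ctsc, Ctsf, Atp6v0a2 and Atp6v1a. Single libraries moved this count: 5 were called without control library 1 or without control library 2, 6 without control library 4 or Sirt1 deleted library 2, and 16 without control library 5. The whole table moved as well, from 1973 genes called higher and 2371 lower with every library. There were 1003 and 1332 without control library 1, and 922 and 1278 without control library 2. Without control library 4 there were 1360 and 1786, without Sirt1 deleted library 2 1143 and 1568, and without control library 5 2158 and 2554. Atg2b, Lamp2, Atp6v0c, Atp6v1a and Atp6v1g1 were called in each of the 10 fits that leave out 1 library. In bulk tissue, fewer cells of a type and less RNA per cell cannot be told apart.

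Differences over the whole table followed transcript length, which bears on these genes as well. The Spearman rho between the log2 difference and the length of the longest protein-coding transcript was -0.61 over 12397 genes, -0.42 over the 54 genes and -0.84 over the 15 pump subunits (descriptions across genes, which share the same libraries). Many values are therefore followed by one corrected for length and GC content within each library. A difference given alone, with no setting named, is as deposited, and 13 of the 54 changed sign under the correction. After that correction 6 of the 54 genes were called higher and 6 lower, or 22.2%, against 14.6% of the 12397 genes with a known length. With the principal transcript in place of the longest, 7 were called higher and 6 lower, where 15.1% of all genes were called (8.61% higher and 6.54% lower). Only 5 were called in the same direction both ways: Atp6v1a, Lamp2, Ctsc and Ctsf lower and Atp6v0e higher. When limma also took the slope of each library on transcript length as a covariate, 0 of the 54 were called (2 at an unadjusted p under 0.05), and 21 of the 54 differences changed sign, among them those of 5 called genes (Atg2b, Atp6v0e, Atp6v1a, Atp6v1f and Atp6v1g1). Over all 13567 genes tested, that covariate left 0 called as well (577 unadjusted). Without the 3 libraries of steepest slope (control libraries 1 and 2 and Sirt1 deleted library 5) limma called 0 of the 54 (6 unadjusted). Over all genes tested it then called 1 higher and 2 lower (3159 unadjusted). Sirt1 itself was uncalled in both settings.

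**Figure D1:**
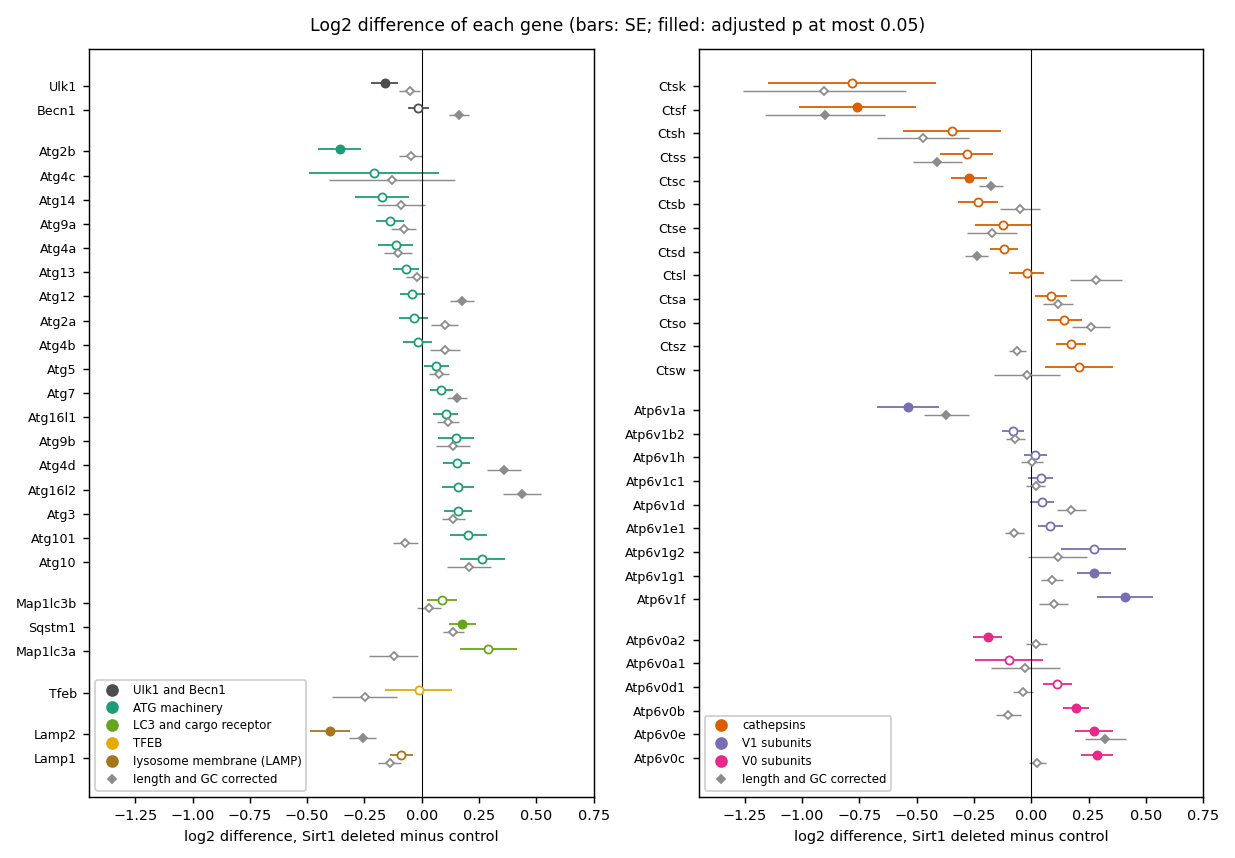
Log2 difference between Sirt1 deleted and control spleens (x axis) for each of the 54 genes, by role (coloured circles, as deposited) and after length and GC correction (grey diamonds), with SE bars (n = 5 each) and filled symbols where the adjusted p was at most 0.05. Most ATG genes lie near 0, while Atp6v1a, Lamp2, Ctsc and Ctsf are filled to the left of 0 in both forms.

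Of the kinases and lipid kinase subunits that start autophagy, Ulk1 fell slightly and Becn1 was not called. Ulk1 (chromosome 5, 110784488 to 110810097, GRCm38), the kinase of the initiation complex, had 2466, 2700, 2367, 2532 and 2335 normalized counts in Sirt1 deleted libraries 1 to 5, against 2868, 2658, 2991, 2719 and 2638 in control libraries 1 to 5. The groups overlap, with Sirt1 deleted library 2 above control libraries 2 and 5. Its log2 difference was -0.16 (SE 0.0573, adjusted p = 0.0458), and -0.05 after correction (adjusted p = 0.454). The call was kept in 2 of the 10 fits that each leave out 1 library (without control library 5 or Sirt1 deleted library 2), and the difference ranged from -0.19 to -0.13 over the 10. Becn1, the scaffold of the lipid kinase complex, had 4363, 4661, 4660, 4769 and 4378 normalized counts in Sirt1 deleted libraries, against 4542, 4637, 4722, 4693 and 4474 in control libraries. The 2 groups share nearly the same range. Its difference was -0.02 (adjusted p = 0.815) as deposited and 0.16 (adjusted p = 0.0299) after correction, a change of sign that comes with its transcript of 4365 bases.

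Of 18 ATG genes, 1 fell (Atg2b), 0 rose and 17 did not pass in limma, where 17.5% of all genes tested fell and 14.5% rose. An unadjusted p under 0.05 in limma was found for 7 of the 18 and for 6078 of all 13567 genes tested. The differences of the 18 had a median of 0.02, against 0.00 over all genes tested, and lay between -0.36 for Atg2b and 0.26 for Atg10. Atg2b (chromosome 12, 105616136 to 105685211), a lipid transfer protein that feeds the growing membrane, had 2987, 2564, 2619, 2557 and 2031 normalized counts in Sirt1 deleted libraries, against 3338, 3682, 3241, 3146 and 2884 in control libraries. Only Sirt1 deleted library 1 reached into the control range, above control library 5. Its difference was -0.36 (SE 0.0925, adjusted p = 0.0146) and was called whichever library was left out, but it has the longest transcript of the 54 (7546 bases), and -0.05 was left after correction (adjusted p = 0.532).

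Its paralog Atg2a, with a transcript of 6371 bases, stood at -0.03 (adjusted p = 0.701). Atg2a had 2368, 2341, 1941, 2287 and 2302 normalized counts in Sirt1 deleted libraries, against 2394, 2274, 2429, 2171 and 2222 in control libraries. Apart from Sirt1 deleted library 3, which was lowest of all, the libraries of the groups intermix. Atg3, the enzyme that passes LC3 on to its lipid, had 1999, 2122, 2138, 1927 and 2201 normalized counts in Sirt1 deleted libraries, against 1768, 1832, 1767, 1849 and 2095 in control libraries. Control library 5 lay among the Sirt1 deleted libraries, and the difference of 0.16 missed the threshold (adjusted p = 0.0638).

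Of the genes of the conjugation systems, Atg7, Atg5, Atg12 and Atg16l1 stood close to 0 in the values as deposited. Atg3 (0.16) and Atg10 stood further above 0 and were not called. Atg7, which activates both ubiquitin-like proteins, was at 0.09, Atg5 at 0.06, Atg12 at -0.04 and Atg16l1 at 0.10. Atg10, which joins ATG12 to ATG5, was at 0.26 (adjusted p = 0.057). The LC3-processing proteases were uncalled as well, with Atg4a at -0.11, Atg4b at -0.02, Atg4c at -0.21 and Atg4d at 0.15. Atg4c was near the minimum, with 19.9 ± 5.22 normalized counts in Sirt1 deleted and 23.8 ± 8.50 in control spleens. After correction 4 ATG genes were called higher and 0 lower, where 8.48% of all genes were called higher: Atg16l2 (0.44), Atg4d (0.36), Atg12 (0.18) and Atg7 (0.15). Each of them is long for its difference, from 3895 bases in Atg7 to 6459 in Atg16l2, and the same 4 were called when the principal transcript of each gene was used instead of the longest.

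LC3 and its cargo receptor stood on the higher side, and of the 3 genes Sqstm1 passed. Sqstm1 (chromosome 11, 50199366 to 50210827) encodes p62, a receptor that carries ubiquitinated cargo into autophagosomes and is itself degraded there. It had 4637, 5232, 4892, 4583 and 5149 normalized counts in Sirt1 deleted libraries, against 4265, 4048, 4574, 4119 and 4660 in control libraries. The groups overlap, since control library 5 exceeds Sirt1 deleted libraries 1 and 4. The difference was 0.18 (SE 0.0588, adjusted p = 0.0363), it stayed between 0.15 and 0.20 when single libraries were left out, and the call ended without control library 1, 2 or 4 or Sirt1 deleted library 2, 3 or 5 (adjusted p up to 0.0978). It was 0.14 after correction (adjusted p = 0.056).

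Map1lc3b, the main LC3 gene of these spleens, had 3388, 3913, 3763, 3751 and 4105 normalized counts in Sirt1 deleted libraries, against 3396, 3507, 3848, 3252 and 3788 in control libraries. Its groups overlap over most of their range and its difference was 0.09 (adjusted p = 0.302). Map1lc3a, the second LC3 gene, was scarce, with 187, 211, 166, 179 and 241 normalized counts in Sirt1 deleted libraries, against 156, 132, 185, 151 and 177 in control libraries. Per kilobase of transcript, Map1lc3b averaged 1437 and Map1lc3a 177 normalized counts in Sirt1 deleted spleens, and 1351 and 144 in control spleens. The difference of Map1lc3a changed sign, from 0.29 as deposited (adjusted p = 0.0907) to -0.12 after correction (adjusted p = 0.453).

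Tfeb, the regulator of lysosomal genes, did not differ detectably. It had 94.3, 132, 139, 151 and 152 normalized counts in Sirt1 deleted libraries, against 148, 105, 128, 147 and 140 in control libraries. Sirt1 deleted library 1 was the lowest of all and the other libraries intermix. The log2 difference was -0.01 with an SE of 0.147 (adjusted p = 0.955) and -0.25 after correction (adjusted p = 0.241), so a moderate change in either direction could not be seen at this spread.

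Of the lysosomal membrane proteins, Lamp2 fell and Lamp1 was not called. Lamp2 (chromosome X, 38401357 to 38456454), needed for fusion of autophagosomes with lysosomes and for chaperone-mediated autophagy, had 2605, 2498, 2789, 2872 and 2007 normalized counts in Sirt1 deleted libraries, against 3388, 3344, 3614, 3275 and 3123 in control libraries. Every Sirt1 deleted library lay below every control library, as was so in either direction for 5 of the 54 genes and for 16.5% of all genes tested. The Sirt1 deleted spleens kept 76.3% of the control level, a log2 difference of -0.40 (SE 0.0864, adjusted p = 0.00902, the smallest of the 54). It was called whichever library was left out, with differences from -0.45 to -0.32, and after correction (-0.26, adjusted p = 0.0167).

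Lamp1, its near relative, had 5276, 5489, 6074, 6018 and 5455 normalized counts in Sirt1 deleted libraries, against 6134, 5946, 6174, 5832 and 5973 in control libraries. Sirt1 deleted libraries 3 and 4 lay inside the control range and the other 3 below it. Its difference was -0.09 (adjusted p = 0.2) and -0.14 after correction (adjusted p = 0.0632). The ratio of Lamp2 to Lamp1 was 0.494, 0.455, 0.459, 0.477 and 0.368 in Sirt1 deleted libraries and 0.552, 0.562, 0.585, 0.562 and 0.523 in control libraries. This ratio, which was chosen after the values were seen and not tested, cancels any scaling of a whole library but not the length trend, since the transcripts have 3604 and 2229 bases. Lamp3 was below the minimum, with at most 4.89 normalized counts in any library.

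**Figure D2:**
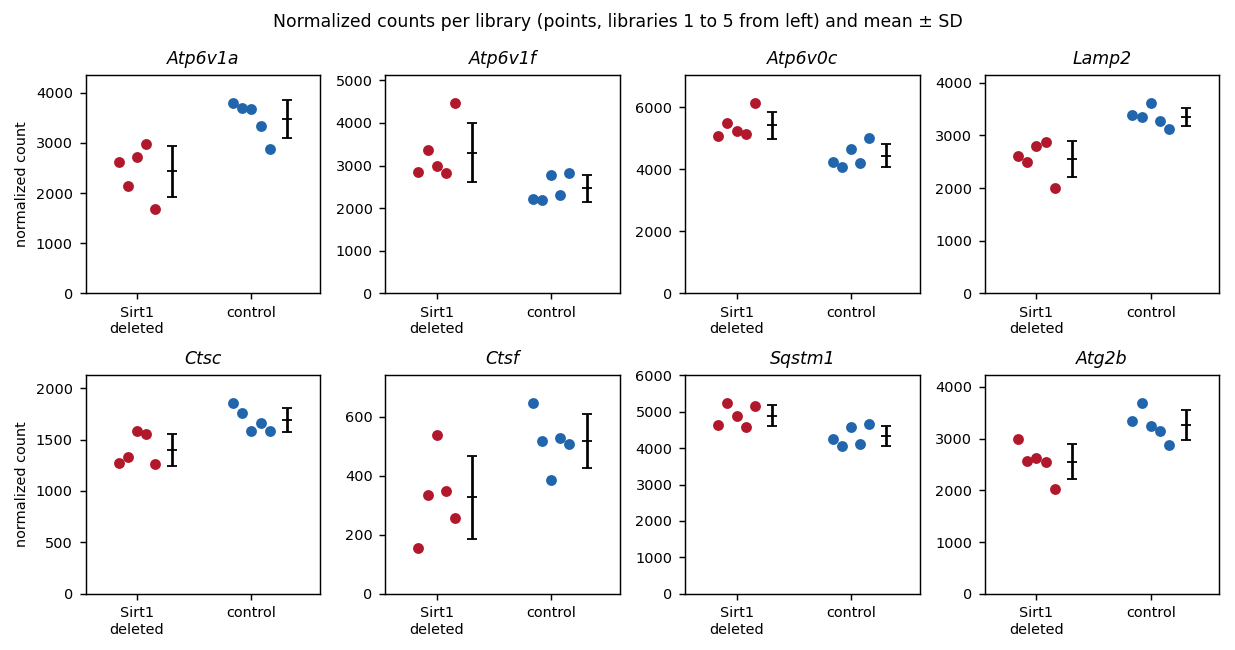
Normalized counts (y axis, from 0) of 8 called genes in each Sirt1 deleted library (red, left) and control library (blue, right), with the mean and SD of each group beside the points (n = 5). The groups are apart for Atp6v1f, Atp6v0c and Lamp2 and overlap for Atp6v1a, Ctsc, Ctsf, Sqstm1 and Atg2b.

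Among 13 cathepsins, 2 fell (Ctsc and Ctsf), 0 rose and 11 did not pass, with 5 at an unadjusted p under 0.05 (6078 of all 13567 genes). These 2 are 15.4% of the list, near the 17.5% of all genes called lower. Their median log2 difference was -0.12, against 0.00 over all genes tested. Ctsf (chromosome 19, 4855130 to 4860918), a cysteine protease, had 154, 334, 539, 347 and 257 normalized counts in Sirt1 deleted libraries, against 645, 516, 385, 527 and 508 in control libraries. The groups overlap, with Sirt1 deleted library 3 above 4 of the 5 controls. Its difference of -0.76 was the largest among the called genes of the 54 but its SE was 0.256 (adjusted p = 0.0386), and the call was kept in only 3 of 10 fits that leave out a library. These were the fits without control library 3 and without Sirt1 deleted library 3 or 4, and the difference ran from -0.97 to -0.52 over all 10. After correction it was -0.90 (adjusted p = 0.0374).

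Ctsc (chromosome 7, 88278085 to 88310888), the dipeptidyl peptidase that activates granule serine proteases, had 1273, 1332, 1585, 1550 and 1258 normalized counts in Sirt1 deleted libraries, against 1852, 1754, 1585, 1663 and 1580 in control libraries. Sirt1 deleted library 3 lay between the lowest 2 controls and the other Sirt1 deleted libraries lay below all of them. The difference was -0.27 (SE 0.0788, adjusted p = 0.0216) and -0.17 after correction (adjusted p = 0.0433). The call ended without control library 1 or 2 or Sirt1 deleted library 2 (adjusted p up to 0.063), with differences from -0.32 to -0.24 over all 10 omissions.

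Ctsb and Ctsd had the highest mean normalized counts of the cathepsins and were not called as deposited. Ctsb, a cysteine protease, had 8495, 10266, 11615, 11884 and 11459 normalized counts in Sirt1 deleted libraries, against 13988, 12557, 12305, 11930 and 11904 in control libraries. All Sirt1 deleted libraries lay below all controls, but by less than the spread within the groups; the difference was -0.23 (adjusted p = 0.0575) and -0.05 after correction (adjusted p = 0.74). Without Sirt1 deleted library 3, 4 or 5, Ctsb was called, with differences from -0.27 to -0.15 over the 10 omissions.

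Ctsd, the main aspartic protease of lysosomes, had 6398, 6928, 6790, 7137 and 7656 normalized counts in Sirt1 deleted libraries, against 8132, 7418, 7960, 6889 and 7526 in control libraries. Its groups overlap and the difference was -0.12 (adjusted p = 0.143). With its transcript of 2127 bases it was called after correction (-0.24, adjusted p = 0.0118). Ctss, a protease of antigen-presenting cells that trims the MHC class II invariant chain, was likewise called after correction (-0.41, adjusted p = 0.0244) but not as deposited (-0.28, adjusted p = 0.0795). Together 4 cathepsins were lower and 0 higher after correction, with a median of -0.17, where 6.12% of all genes were called lower and 8.48% higher. With the principal transcript 4 were lower and 1 higher, Ctso (0.28, adjusted p = 0.0423).

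The remaining cathepsins were called neither as deposited nor after correction by the longest transcript. Ctsk, the collagen-degrading cathepsin of osteoclasts, was close to the minimum, with 13.5 ± 6.32 normalized counts in Sirt1 deleted and 22.4 ± 7.56 in control spleens, and a difference of -0.78 (adjusted p = 0.114). Ctsh was at -0.35, Ctse, an aspartic protease of endosomes, at -0.12, Ctsl at -0.02, Ctsa at 0.09, Ctso at 0.14, Ctsz at 0.17 and Ctsw, a cathepsin of cytotoxic lymphocytes, at 0.21. Ctsl rests on which transcript was expressed, since its corrected difference was 0.28 at the 6168 bases of its longest transcript and -0.03 at the 1971 bases of its principal one. Per kilobase of transcript Ctsd was highest of the cathepsins, with a mean of 3283 normalized counts in Sirt1 deleted and 3566 in control spleens.

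Macrophage markers were lower in the same spleens, and they were not the only cell type markers called. Of 10 erythroid markers 3 fell and 0 rose, and of 11 B cell markers tested 3 rose and 1 fell, where 14.5% of all genes rose. After correction 6 of 9 erythroid markers were called lower, where 6.12% of all genes were. Of 18 listed macrophage markers 9 fell, 0 rose, where 17.5% of all genes fell, and none was at 0 in every library, and their summed level was 8778 to 14022 normalized counts in Sirt1 deleted libraries and 14727 to 21656 in control libraries. Sirt1 deleted library 1, which had the lowest macrophage sum, also held the lowest value of 8 of the 13 cathepsins and the lowest sum of erythroid markers (205518, against 435564 to 466329 in the other Sirt1 deleted libraries and 420904 to 534902 in control libraries). Without that library the difference of Ctsf was -0.52 and no longer called (adjusted p = 0.0509), and that of Ctsc was -0.24 and still called. With the mean level of macrophage and neutrophil markers as a covariate, Ctsf stood at -0.84 and Ctsc at -0.28, both called; that score mixes the macrophage list with the neutrophil list, whose median stood at 0.81 with 2 of 14 called, so the part of macrophages alone was not tested.

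Of 15 proton pump subunits 7 were called (46.7%, against 32.0% of all genes tested), and they went both ways. In the V1 part Atp6v1f and Atp6v1g1 rose, Atp6v1a fell and 6 did not pass. In the V0 part Atp6v0b, Atp6v0c and Atp6v0e rose, Atp6v0a2 fell and 2 did not pass. The subunits that rose have transcripts of 806 to 2812 bases and those that fell 4234 and 5345 bases. After correction 2 of 15 (13.3%, near the 14.6% of all genes) were called, Atp6v1a lower and Atp6v0e higher.

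Atp6v1a (chromosome 16, 44085402 to 44139705) encodes the catalytic A subunit that hydrolyses ATP. It had 2628, 2148, 2717, 2982 and 1680 normalized counts in Sirt1 deleted libraries, against 3796, 3706, 3673, 3342 and 2888 in control libraries. Sirt1 deleted library 4 alone exceeded a control, the lowest one. The level was 69.8% of control, a log2 difference of -0.54 (SE 0.135, adjusted p = 0.0132), and it was called whichever library was left out (-0.62 to -0.41) and after correction (-0.37, adjusted p = 0.0269). Its 4234 bases lie at the upper end of the length class of 3607 to 4237 bases, whose median gene stood at -0.09. The median gene of the next class (4238 to 5060 bases) stood at -0.16.

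Atp6v1b2, the B subunit that alternates with A in the same ring, had 2939, 2877, 2945, 2869 and 2676 normalized counts in Sirt1 deleted libraries, against 3096, 2870, 3165, 2945 and 3051 in control libraries. Its libraries differ little, and the difference was -0.08 (adjusted p = 0.22). The ratio of Atp6v1a to Atp6v1b2 was 0.894, 0.747, 0.923, 1.04 and 0.628 in Sirt1 deleted libraries and 1.23, 1.29, 1.16, 1.13 and 0.947 in control libraries. The groups overlap by Sirt1 deleted library 4 and control library 5; this ratio too was chosen after the values were seen and was not tested.

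Atp6v1f (chromosome 6, 29467718 to 29470512), a small subunit of the central stalk, showed the largest rise of the 54 genes. It had 2849, 3367, 2994, 2837 and 4467 normalized counts in Sirt1 deleted libraries, against 2212, 2196, 2781, 2316 and 2828 in control libraries. The groups are barely apart, with the narrow gap between Sirt1 deleted library 4 and control library 5. Its difference was 0.41 (SE 0.122, adjusted p = 0.0244), with the shortest transcript of the 54 (806 bases), and 0.10 after correction (adjusted p = 0.312). The call ended without control library 1, 2 or 4 or Sirt1 deleted library 2 (adjusted p up to 0.0672), with differences of 0.29 to 0.46.

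Atp6v1g1, a subunit of the peripheral stalks, had 3455, 3944, 3598, 3658 and 4632 normalized counts in Sirt1 deleted libraries, against 3191, 3164, 3028, 3038 and 3459 in control libraries. Only Sirt1 deleted library 1 and control library 5 meet. The difference was 0.27 (adjusted p = 0.0185), called whichever library was left out, and 0.09 after correction (adjusted p = 0.195). Atp6v1h, the regulatory H subunit, had 2397, 2189, 2320, 2306 and 2212 normalized counts in Sirt1 deleted libraries, against 2174, 2176, 2227, 2437 and 2272 in control libraries, and its difference was 0.02 (adjusted p = 0.811). Between these, Atp6v1c1 stood at 0.04, Atp6v1d at 0.05 and Atp6v1e1 at 0.08, none called in either form. Atp6v1g2, a G subunit best known from neurons, was scarce at 145 normalized counts in Sirt1 deleted and 120 in control spleens on average and was uncalled (0.27, adjusted p = 0.152).

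**Figure D3:**
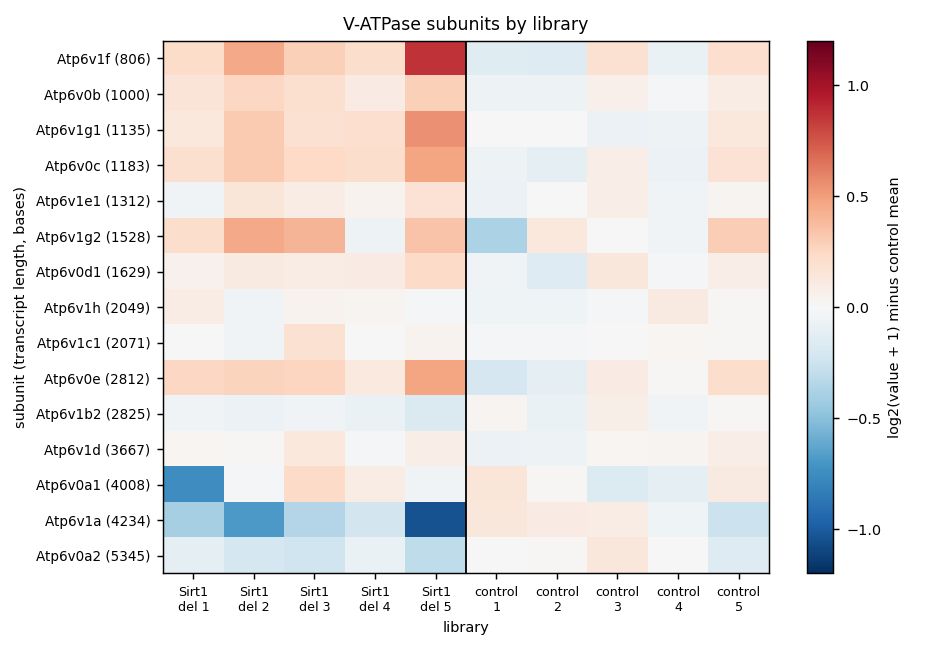
Heat map of the 15 V-ATPase subunits (rows, ordered by the length of the longest protein-coding transcript in bases, shortest on top) in each library (columns, Sirt1 deleted left), coloured by log2(value + 1) minus the mean of the control libraries. Short subunits are red and Atp6v1a and Atp6v0a2 blue in the Sirt1 deleted libraries, most of all in library 5, which held the highest value of 7 of the 15 subunits.

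In the membrane part, Atp6v0c (chromosome 17, 24163866 to 24169702) encodes the proteolipid of the rotating ring. It had 5075, 5503, 5225, 5141 and 6135 normalized counts in Sirt1 deleted libraries, against 4251, 4079, 4668, 4210 and 5005 in control libraries. The groups do not overlap, and control library 5 came closest to the Sirt1 deleted ones. The difference was 0.29 (SE 0.0699, adjusted p = 0.0124), called whichever library was left out, and 0.03 after correction (adjusted p = 0.667). Its reads are uncertain in part, since near-copies such as the listed pseudogene Atp6v0c-ps2 (at most 19.7 normalized counts) may share them.

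Atp6v0b, a second ring subunit, had 1325, 1419, 1365, 1275 and 1450 normalized counts in Sirt1 deleted libraries, against 1141, 1145, 1242, 1173 and 1265 in control libraries. These groups are apart as well, by a narrow gap. The difference was 0.20 (adjusted p = 0.0237); it turned to -0.10 after correction (adjusted p = 0.213), and the call ended without control library 1, 2 or 4 or Sirt1 deleted library 2, with differences of 0.17 to 0.22.

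Atp6v0e (chromosome 17, 26663231 to 26699647), the small e subunit, had 2164, 2190, 2180, 1971 and 2526 normalized counts in Sirt1 deleted libraries, against 1579, 1672, 1950, 1840 and 2100 in control libraries. Control library 5 exceeded Sirt1 deleted library 4, so the groups overlap. The difference was 0.27 (adjusted p = 0.0279) and 0.32 after correction (adjusted p = 0.0316), at an assumed 2812 bases. The call ended without control library 1, 2 or 4 or Sirt1 deleted library 2 or 5 (adjusted p up to 0.0765), with differences of 0.22 to 0.33.

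Atp6v0a2, the abundant a subunit of Golgi and endosomes, had 5118, 4799, 4680, 5230 and 4477 normalized counts in Sirt1 deleted libraries, against 5572, 5584, 6077, 5530 and 4990 in control libraries. Control library 5 lay among the Sirt1 deleted libraries. The difference was -0.19 (adjusted p = 0.0331) and 0.02 after correction (adjusted p = 0.768). It kept its call in 3 of 10 fits, those without control library 5 or Sirt1 deleted library 1 or 4, with differences of -0.23 to -0.16 over the 10.

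Its relative Atp6v0a1 had 408, 673, 800, 727 and 665 normalized counts in Sirt1 deleted libraries, against 758, 689, 612, 637 and 736 in control libraries, with Sirt1 deleted library 1 far below the rest and no call (-0.10, adjusted p = 0.626). Atp6v0d1, which couples the ring to the stalk, had 2403, 2506, 2469, 2481 and 2726 normalized counts in Sirt1 deleted libraries, against 2263, 2094, 2556, 2279 and 2452 in control libraries. Those groups overlap and the difference was 0.11 (adjusted p = 0.167). The tissue-restricted subunits Atp6v0a4, Atp6v0d2 and Atp6v1g3 were below the minimum; just outside it, Atp6v0d2, a subunit of osteoclasts and some macrophages, had 5.48 ± 2.43 normalized counts in Sirt1 deleted and 9.95 ± 4.13 in control spleens. Per kilobase, Atp6v0c was the highest subunit with 4578 in Sirt1 deleted and 3755 in control spleens, and Atp6v0a1 the lowest of the V0 part with 163 and 171.

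**Figure D4:**
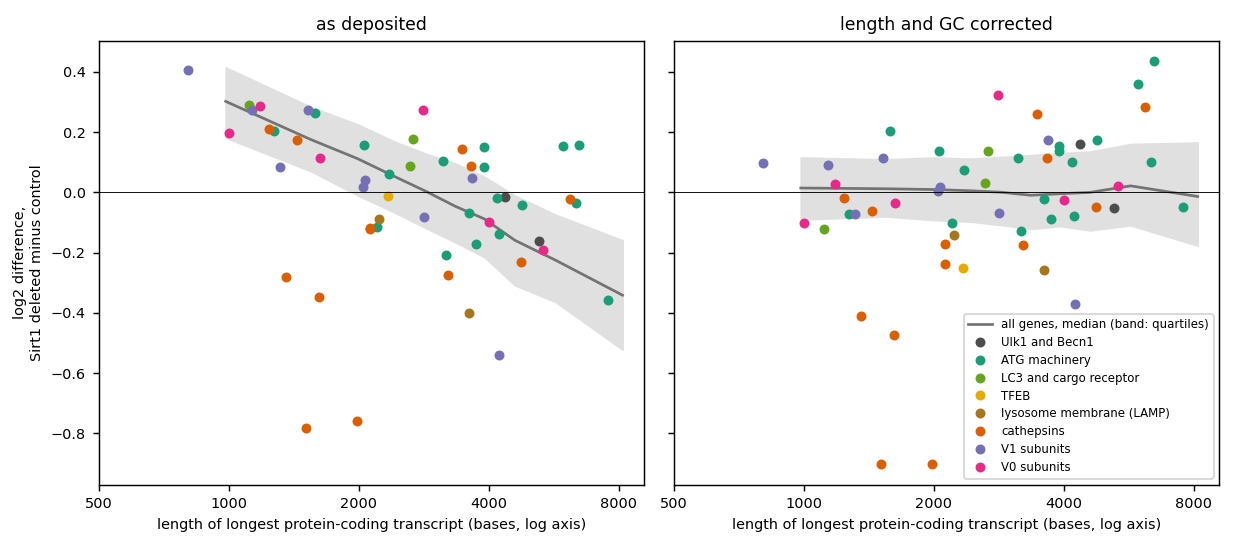
Log2 difference between Sirt1 deleted and control spleens (y axis) against transcript length (x axis, log scale) for the 54 genes by role, over the median and quartiles of all genes in 10 length classes (line and band), as deposited (left) and after length and GC correction (right). Pump subunits follow the falling line on the left except Atp6v1a and, by less, Atp6v1e1 below and Atp6v0e above it. Ctsf, Ctsk, Ctss, Ctsh, Ctsc, Ctsd, Ctse, Lamp1 and Lamp2 are among the genes below the band in both panels.

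Genes of the same pathway outside these symbols were read from lists sorted by role. Of 136 tested, limma called 11 higher and 31 lower and left 94 uncalled, where 14.5% of all genes were called higher and 17.5% lower. After correction 6 were called higher and 12 lower, where 8.48% of all genes were called higher and 6.12% lower. Among other initiation and nucleation genes 3 of 12 fell, led by Rb1cc1 (FIP200, the ULK1 complex scaffold), which was at -0.37 and at 0.02 after correction, and Pik3r4 (-0.24, corrected -0.10). Among other LC3 family genes and receptors Gabarap rose (0.22, corrected 0.05) and 3 of 12 fell, led by Wdfy3 (-0.88, corrected -0.54 and no longer called), a large scaffold for aggregate clearance. In autophagosome maturation and fusion 2 of 15 fell, Epg5 at -0.17 (0.17 and called higher after correction) and Vps39 at -0.26.

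Among lysosomal hydrolases outside the cathepsins, 8 of 33 fell and 1 rose (Fuca1, 0.19). Lipa, the acid lipase that frees cholesterol from its esters, fell to 1759 ± 165 normalized counts in Sirt1 deleted spleens, against 2285 ± 189 in control spleens (-0.38, corrected -0.32, limma adjusted p = 0.00855 and 0.0103). Ids, the iduronate sulfatase, stood at 645 ± 92.0 in Sirt1 deleted and 908 ± 106 in control spleens (-0.50, corrected -0.25, called in both). After correction 5 hydrolases were lower and 0 higher, and the median of the 33 was -0.08.

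Of 16 further lysosomal membrane proteins 1 fell, Scarb2 (-0.21, corrected -0.01). Tcirg1, the a3 subunit of the pump that lacks an Atp6v symbol, averaged 5475 ± 738 normalized counts in Sirt1 deleted and 4581 ± 177 in control spleens and rose by 0.25 (adjusted p = 0.0319, corrected 0.16 and not called). Dmxl1 fell by 0.75 (corrected -0.31) and Wdr7 fell by 0.66 (corrected -0.35), both parts of the complex that rejoins V1 with V0 and both called after correction. In that list 1 of 12 rose, 4 fell and 7 did not pass.

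Among TFEB relatives and their control, 4 of 22 rose (Rheb, Lamtor2, Lamtor4 and Lamtor5) and 7 fell, where 14.5% of all genes rose and 17.5% fell. After correction 1 of the 22 was called higher and 3 lower. The genes that fell were led by Fnip1 (-0.64, corrected -0.30) and Rragd (-0.44, corrected -0.21). Both belong to the folliculin and Rag GTPase branch that holds TFEB-family factors at the lysosome. Tfe3 stood at -0.02 and Mitf, near the minimum with 11.2 normalized counts in Sirt1 deleted and 12.6 in control spleens, at -0.05, neither called. Of 5 cathepsin inhibitors tested 3 rose, where 14.5% of all genes were called higher. Stfa2 rose to 17.9 ± 5.50 in Sirt1 deleted spleens against 5.94 ± 1.84 in control spleens (1.43, corrected 1.08). At that control mean and SD no control library could reach the minimum, so Stfa2 was tested through the Sirt1 deleted group alone. The minimum thus selected it for being high there, which bears on its place among the 3 that rose. With no minimum applied it was still called (limma adjusted p = 0.00864). Cstb rose by 0.23 and Cst3 by 0.28. After correction 1 of the 5 was called higher, where 8.48% of all genes were. The median of the 5 went from 0.28 as deposited to -0.07 after correction, and Cstb was then at -0.11. Stfa2 is one of a cluster of near-copies also known from neutrophils, so its reads are uncertain. In enzyme sorting 1 of 9 rose (Gnptg) and 3 fell, among them Sort1 (-0.66, corrected -0.38) and the mannose 6-phosphate receptor gene Igf2r (-0.40, corrected -0.07 and no longer called).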

How the data were processed

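RNA of 10 leukemic spleens was sequenced from strand-specific libraries. The submitters' processing notes name kallisto 0.44.0, DESeq (no version given) and mm10. The authors deposited 1 signal table, counts after DESeq normalization for 16865 symbols in 10 columns, all used (0 left out); annotation, gene filter and use of strand are not given in the sources used here. Values are not whole: 84.0% to 91.4% of values under 8 lay within 0.1 of a step, so count models were not fitted. A normalized count of 100 thus rests on about 62.4 to 131 reads.

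Group differences, Sirt1 deleted minus control, came from limma 3.58.1 (trend option, R 4.3.3) on log2(value + 1) of the 13567 genes with 10 or more in at least 5 libraries, two-sided, with Benjamini-Hochberg adjustment over all of them; folds on this scale understate low genes. Positions and lengths are from GENCODE M21 (GRCm38), and 12397 tested genes (91.4%), including all 54 members, had a protein-coding length. For the correction, each library's departures from the gene means were regressed on natural splines (5 degrees of freedom each) of log2 length and of GC share, and the residuals were used; true differences tied to length are lost with it. Steps were tested on simulated data.

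Values in every library are given for 8 genes (Tfeb, Ulk1, Becn1, Sqstm1, both LC3 genes, Lamp1 and Lamp2) and, in the ATG, cathepsin, V1 and V0 groups, for the 4 called genes of smallest p (all of them where fewer were called) and the 2 uncalled ones of highest mean. In each other list the 2 called genes of smallest p are named, and Tcirg1, Tfe3 and Mitf in any case; further names were chosen after their values were seen. The members and lists were chosen with earlier results of these data known. Alternatives were other pseudocounts, minimums and scalings, the length correction, a slope or marker covariate, and omitted libraries. Python 3.11.15, pandas 2.3.3, numpy 2.4.6, scipy 1.17.1 and matplotlib 3.10.9 were used.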

Additional observations from a re-analysis of the deposited data

Results flagged for a closer look

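Among the members with values given in every library, 3 had 1 library far from the other 4 of its group. The gap to the nearest library, over the range of the group, exceeded Dixon's critical ratio of 0.71. Chance gives this for about 1 in 20 groups, and both groups of each such gene were examined, so a few such gaps can arise by chance. Atg2a was at 1941 normalized counts in Sirt1 deleted library 3, with the other Sirt1 deleted libraries at 2287 to 2368 (ratio 0.81). Atp6v1b2 was at 2676 in Sirt1 deleted library 5, with the other Sirt1 deleted libraries at 2869 to 2945 (ratio 0.719). Atg3 was at 2095 in control library 5, with the other control libraries at 1767 to 1850 (ratio 0.748). Without control library 5 Atg3 was called higher in Sirt1 deleted spleens, at a log2 difference of 0.20. Members outside that set also held distant libraries. Atg4b was at 1727 in Sirt1 deleted library 1, with the other Sirt1 deleted libraries at 1972 to 2014. Ctse was at 7398 in control library 5, with the other control libraries at 5237 to 5852.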

How the results depend on the processing

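The calls depended most on transcript length. With each library's slope on length as a covariate, limma called 0 higher and 0 lower among the 54 genes, among the other pathway lists and among all genes tested (2, 2 and 577 at an unadjusted p under 0.05), Sirt1 was at -0.00057 and uncalled, and 21 of the 54 differences changed sign; among the genes tabulated singly (those with values given in every library and those named by rule from the other lists), the opposite signs were Becn1 0.032, Map1lc3a -0.13, Map1lc3b -0.092, Atg2b 0.055, Atg3 -0.022, Atp6v1a 0.096, Atp6v1g1 -0.023, Atp6v1f -0.16, Atp6v0e -0.056, Atp6v0d1 -0.067, Rb1cc1 0.023, Pik3r4 0.014, Vps39 0.055, Scarb2 0.032, Tcirg1 -0.036 and Mitf 0.21. This covariate is nearly aligned with the groups, since the slopes were -0.24 to -0.025 in Sirt1 deleted and 0.0035 to 0.16 in control libraries. Without the 3 libraries of steepest slope 0 of the 54 and 0 of the other pathway genes were called (6 and 21 unadjusted), and 1 gene higher and 2 lower over all (3159 unadjusted), with Sirt1 at -0.27 and uncalled, 4 of the 54 changed in sign, and among the genes tabulated singly Atp6v1h -0.0054 and Mitf 0.30 of opposite sign; 7 libraries were left.

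With the length and GC correction the other pathway lists held 6 higher and 12 lower and all genes 1051 and 759; 13 of the 54 changed sign, and among the genes tabulated singly they were Becn1 0.16, Map1lc3a -0.12, Atg2a 0.099, Atp6v0b -0.10, Atp6v0a2 0.022, Atp6v0d1 -0.034, Rb1cc1 0.016, Epg5 0.17, Cstb -0.11 and Mitf 0.18. With the principal transcript in that correction, an alternative chosen after seeing the data, they held 5 and 15, and 1067 and 811, 7 of the 54 genes were higher and 6 lower, 12 changed sign, and among the genes tabulated singly they were Becn1 0.18, Map1lc3a -0.11, Atg2a 0.098, Atp6v0b -0.089, Atp6v0a2 0.036, Atp6v0d1 -0.015, Rb1cc1 0.017, Epg5 0.17, Scarb2 0.010, Cstb -0.076 and Mitf 0.20. With the correction and without the 3 libraries, also chosen after seeing the data, 0 of the 54 and 0 of the others were called (8 and 17 unadjusted), 0 higher and 1 lower over all (1900 unadjusted), Sirt1 was at -0.16 and uncalled, 13 of the 54 changed sign, and among the genes tabulated singly they were Becn1 0.10, Map1lc3a -0.21, Atg2a 0.033, Atp6v1h -0.017, Atp6v0b -0.047, Atp6v0d1 -0.058, Rb1cc1 0.027, Epg5 0.11, Scarb2 0.0060, Cstb -0.069 and Mitf 0.44. Why the libraries differ in slope was not tested.

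When each library was left out in turn, 2 to 10 of the 54 genes were called higher and 3 to 8 lower, 2 to 13 and 14 to 37 of the other pathway genes, and 922 to 2158 and 1278 to 2554 of all genes, while Sirt1 stayed between -0.50 and -0.35. Of the 54 differences 6 crossed 0, Atg4b and Ctsl among them; among the genes tabulated singly those that did ran over Tfeb -0.096 to 0.11, Becn1 -0.031 to 0.00068, Atg2a -0.054 to 0.018, Atp6v0a1 -0.18 to 0.062, Tfe3 -0.044 to 0.0034 and Mitf -0.28 to 0.15.

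Other pseudocounts, a minimum of 50, no minimum, TMM or equal totals kept 12 or 13 of the 13 calls, the exception being Ulk1 under TMM and with no minimum; equal totals added Ctsb and the minimum of 50 added Atg10. The marker covariate kept 10, losing Ulk1, Sqstm1 and Atp6v0a2. No paired analysis was possible because the labels give no replicate numbers shared by the groups. Depth limits Ctsk, Atg4c and the 5 genes below the minimum most; intervals on single values could not be given, since normalized estimates are not counts.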
